A study of Mus musculus with 2 samples.

Results

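The genes described here are 10 transcriptional feedback outputs of the ERK pathway: the phosphatase genes Dusp1, Dusp2, Dusp6 and Dusp14, the Sprouty genes Spry1, Spry2 and Spry4, the Ets factor genes Etv4 and Etv5, and Errfi1. Their probe sets were taken where the array annotation maps a probe set to exactly 1 of these genes. This gave 9 probe sets for 6 genes, out of 8251 genes that the array names by at least 1 such probe set. The annotation names no probe set for Dusp14, Spry1, Spry2 and Etv5, alone or among several genes, and leaves 1237 probe sets unnamed, so these 4 genes were not analysed here. The RNA came from 3T3 cells, a line of immortal fibroblasts from mouse embryos, and was hybridised to 1 Affymetrix MG_U74Av2 array per group. The fibronectin sample came from cells plated for 30 min on 10 µg/ml fibronectin, a matrix glycoprotein that cells bind through integrins, in serum-free DMEM. The suspension sample came from cells kept unattached in the same kind of medium, and the sources used here do not give how long they were held there. No genetic change or inhibitor is named for either sample. Per the labels, the plated sample served to follow gene expression in MAPK signalling.

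ERK is the last kinase of the Ras, Raf and MEK cascade, which integrins and growth factor receptors switch on in fibroblasts. Active ERK drives transcription of its own inhibitors, so that their mRNA levels are widely read as an output of the pathway. DUSP phosphatases remove the activating phosphates from MAP kinases, Sproutys restrain signalling between the receptor and Raf, Errfi1 blocks the kinase domain of the EGF receptor, and the Ets factors Etv4 and Etv5 carry the signal on to their own target genes.

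With 1 array per group there is no test between groups, no replicate check and no p-value, and the number of arrays limits the precision of every value. The series text also mentions 2 replicates, but the labels give 1 sample per group, and whether a sample pools several cultures is not stated. "Higher" and "lower" describe these 2 arrays. Values are MAS5 signals, the brightness of a probe set on a linear scale after both arrays were brought to 1 trimmed mean, and ratios are log2 fibronectin minus suspension. Signals under a floor of 490 were set to the floor, and a gene counted as measured if 1 array reached it. This held for 6385 genes in all and for all 6 genes with a probe set. The 95th percentile of 19 negative control probe sets was 2208 on the fibronectin array and 1433 on the suspension array, well above that floor. The spread of 1 ratio, taken from 1146 genes that had several measured probe sets, was 0.69 (SD, log2). It was 0.39 over the 147 genes whose probe sets exceeded 2208, the higher of these percentiles, on both arrays. This SD holds probe set error only and leaves out any spread between cultures.

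The group cannot be told apart from chip lot, operator, fluidics module or scan day, the 4 of 32 instrument settings that differed. Of 12 fibroblast markers 11 were measured, and 8 of them lay above the 95th percentile of the negative controls in at least 1 array. The collagen gene Col1a1, for example, had a signal of 68592 on fibronectin and 45605 in suspension. The fibroblast marker Vim was not above that percentile, with signals of 686 on fibronectin and 1421 in suspension in its brightest probe set. The summed signal of the fibroblast list was 229504 on fibronectin and 159591 in suspension. Of the markers of other cell types, those above that percentile in at least 1 array were 3 of 11 for macrophages and blood, 1 of 8 for epithelium, 0 of 6 for endothelium, 2 of 6 for muscle and 0 of 5 for neural cells. The summed signal of the macrophage and blood list was 7086 on fibronectin and 9874 in suspension, and that of the muscle list 3361 on fibronectin and 4098 in suspension. For the epithelial list it was 2850 on fibronectin and 5234 in suspension. The endothelial list summed to 566 on fibronectin and 1251 in suspension, and the neural list to 1126 on fibronectin and 1720 in suspension. These sums cover only measured genes, 4 of 11 for macrophages and blood, 6 of 8 for epithelium and 2 of 6 for endothelium. For muscle they cover 4 of 6 and for neural cells 2 of 5. A gene entered them if 1 array reached the floor. The 2 endothelial genes did so in suspension only, which fixed the direction of their sum. Of the 6 epithelial genes, 1 reached the floor on both arrays. The part of the differences between these sums in the ratios below was not tested.

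On these 2 arrays, the ratios of the feedback genes did not share 1 sign in the probe sets used. On fibronectin, Dusp6 was 3.29-fold higher, Etv4 and Spry4 were lower in the probe sets used, and Dusp1, Errfi1 and Dusp2 had ratios within 1 SD of 0. Of the 6 genes, 1 was at least 1.5-fold higher, where 15.9% of all measured genes were. At least 1.5-fold lower were 2 of them, against a background of 22.6%. The 2-fold limit was passed upwards by Dusp6, against a background of 5.79%, and downwards by Etv4, against a background of 9.27%. A log2 ratio below 0 was found for 5 of the 6, against 55.1% of all measured genes. These 5 include Dusp2, at -0.09, which was near background and turned positive under median scaling, quantile normalization and loess. The median log2 ratio of the 6 was -0.31, and that of all measured genes -0.09. In these bulk samples, a different make-up of cells and a different amount of RNA per cell cannot be told apart.

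**Figure D1:**
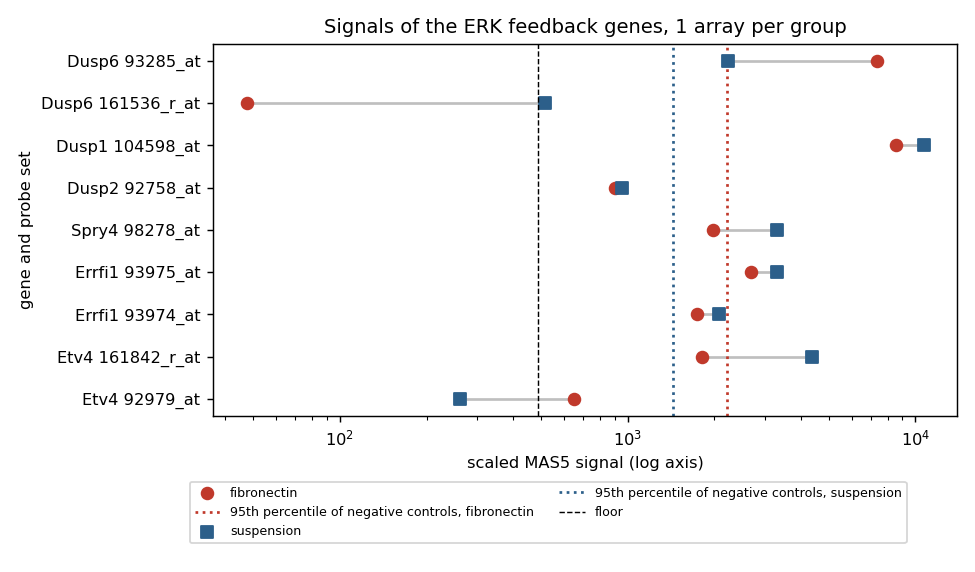
Scaled MAS5 signals (log axis) of the 9 probe sets, with circles for the fibronectin array and squares for the suspension array. The dashed line is the floor and the dotted lines are the 95th percentiles of the negative controls. Dusp6 93285_at is the only probe set above both dotted lines with the fibronectin circle to the right, and the second probe sets of Dusp6 and Etv4 lie at the dim end.

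Dusp6 encodes MKP-3, a cytoplasmic phosphatase that binds ERK and acts on it in preference to JNK and p38. Its probe set 93285_at had a signal of 7355 on fibronectin, against 2232 in suspension. Both signals exceeded every one of the 19 negative controls of their array. The log2 ratio was 1.72, or 3.29-fold higher on fibronectin, which is 2.51 times the SD of 0.69 between probe sets of 1 gene. By ratio it took rank 66 of 6385 measured genes from the highest, so that 1.03% of the genes had a ratio as high or higher. Among the 2129 genes in the top tertile of signal this share was 0.376%. The second probe set of Dusp6, 161536_r_at, had a signal of 47.5 on fibronectin, against 515 in suspension. It was at least 1.05-fold lower on fibronectin after the floor. On the fibronectin array all 19 negative controls were as bright or brighter, and in suspension 10 were. The suffix r marks probe sets for which Affymetrix relaxed some of its rules of probe choice. With both probe sets averaged, Dusp6 had a log2 ratio of 0.82. Probe set 161536_r_at was too near background to give a ratio, and the higher level on fibronectin rests on 93285_at alone.

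Dusp1 encodes MKP-1, a nuclear phosphatase that acts on JNK, p38 and ERK, and it is itself an immediate early gene. Its single probe set had a signal of 8579 on fibronectin, against 10679 in suspension. No negative control came near these signals. The log2 ratio of -0.32, or 1.24-fold lower on fibronectin, was smaller than the SD of 0.39 between bright probe sets of 1 gene. It was -0.11 under median scaling, -0.50 under quantile normalization, -0.47 with loess and -0.79 with scaling to hybridisation spikes. Whether the ratio of Dusp1 passed that SD thus depended on the scaling. Dusp1 was bright in both conditions, and these arrays do not resolve a difference between them. Dusp2 encodes PAC-1, another nuclear MAP kinase phosphatase, best known from lymphocytes. Its probe set had a signal of 900 on fibronectin, against 959 in suspension. On these arrays 4 of 19 negative controls were as bright or brighter on fibronectin, and 8 were in suspension, so that Dusp2 did not stand above them in either. Its log2 ratio of -0.09 turned to 0.12, 0.14 and 0.13 under median scaling, quantile normalization and loess.

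The promoters of Dusp6 and Dusp1 are shown because these are the 2 phosphatase genes well above background, 1 with a high ratio and 1 with no resolved difference. The sequences come from RefSeq, build GRCm38.p6, and cover the 250 bases before the annotated start, written 5′ to 3′ on the gene's strand. They are chr10:99262981-99263230, plus strand, for Dusp6 and chr17:26508473-26508722, minus strand, for Dusp1. Capitals mark the cyclic AMP response element TGACGTCA, a binding motif of CREB and ATF factors, and its half-site TGACG.
Dusp6: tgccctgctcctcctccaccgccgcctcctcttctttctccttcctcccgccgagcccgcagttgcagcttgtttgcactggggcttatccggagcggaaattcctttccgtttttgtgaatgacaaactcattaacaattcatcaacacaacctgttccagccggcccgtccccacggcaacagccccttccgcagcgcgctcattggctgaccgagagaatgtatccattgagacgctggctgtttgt
Dusp1: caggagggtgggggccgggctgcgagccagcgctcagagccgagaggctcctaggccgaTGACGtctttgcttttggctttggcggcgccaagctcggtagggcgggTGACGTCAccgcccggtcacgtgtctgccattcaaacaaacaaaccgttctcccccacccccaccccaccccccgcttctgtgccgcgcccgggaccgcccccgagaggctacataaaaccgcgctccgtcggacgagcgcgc

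The Dusp1 window holds 1 full element, from 143 to 136 bases before the start, and a separate half-site from 191 to 187 bases before it. The Dusp6 window holds neither. Over 32851 RefSeq promoter windows of the same length, 1.55% hold the full element and 17.8% the half-site, which also counts the half-sites inside full elements. Both strands were searched, for these motifs and for 4 others: TGANTCA of AP-1, CCGGAA of Ets factors, the GC box GGGCGG and the CArG box of SRF. These are found in 6.75%, 12.03%, 32.7% and 1.47% of all windows. Of these 4 motifs, Dusp1 had 3 GC boxes and Dusp6 none of them. The Dusp2 window had 3 GC boxes and no match to the other 5 motifs. G and C made up 56.4% of the Dusp6 window and 68.4% of that of Dusp1, against a median of 52.4% over all windows. These matches describe letters in the windows, and nothing is drawn from them about binding.

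**Figure D2:**
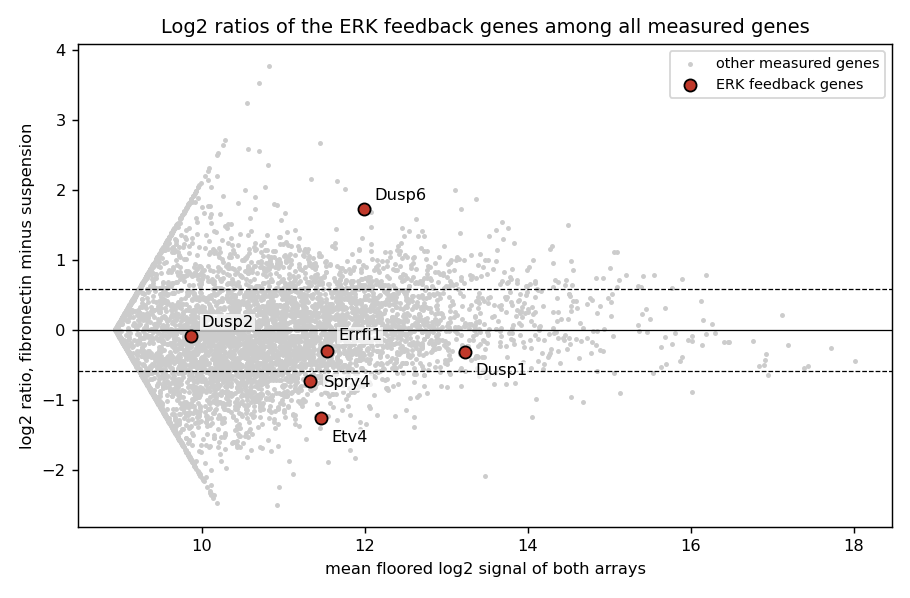
Log2 ratio, fibronectin minus suspension, against the mean floored log2 signal of both arrays for 6385 measured genes (grey) and the 6 feedback genes (red, brightest probe set per gene). Dashed lines mark 1.5-fold in each direction. Dusp6 stands at 1.72 at the upper edge of genes of its brightness, Etv4 at -1.27 at the lower edge, and the other 4 lie between -0.74 and -0.09.

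Spry4 encodes Sprouty 4, which holds back Ras and Raf activation downstream of growth factor receptors. Its single probe set had a signal of 1987 on fibronectin, against 3312 in suspension. The suspension signal exceeded all negative controls of its array, whereas on fibronectin 2 of 19 were as bright or brighter. The log2 ratio was -0.74, or 1.67-fold lower on fibronectin, just past the SD of 0.69. A ratio as low or lower was found for 16.3% of all measured genes and for 6.01% of those in the top tertile of signal. Spry4 is therefore lower on fibronectin by an amount that many other genes also show. Under median scaling its log2 ratio was -0.53, inside the 1.5-fold limit.

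Errfi1 encodes MIG6, which binds the kinase domain of the EGF receptor and its relatives and inhibits it. It is the only one of the 6 genes with 2 probe sets of the same sign. Probe set 93975_at had a signal of 2678 on fibronectin, against 3304 in suspension, and a log2 ratio of -0.30. Probe set 93974_at had a signal of 1747 on fibronectin, against 2083 in suspension, and a log2 ratio of -0.25. Both ratios are smaller than either SD, so that Errfi1, like Dusp1, showed no resolved difference. RefSeq gives 2 starts of Errfi1, and the promoter of the second is shown because it holds the same full element as that of Dusp1. It lies at chr4:150854820-150855069, plus strand, GRCm38.p6, with the same letters in capitals.
Errfi1: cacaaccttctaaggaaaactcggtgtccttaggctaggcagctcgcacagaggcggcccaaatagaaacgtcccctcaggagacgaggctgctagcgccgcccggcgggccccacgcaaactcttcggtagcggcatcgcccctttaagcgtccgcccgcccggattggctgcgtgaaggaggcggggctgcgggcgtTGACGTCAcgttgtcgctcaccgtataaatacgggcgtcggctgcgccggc

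The full element lies from 51 to 44 bases before this start, and the window also holds 3 GC boxes. The window of the other annotated Errfi1 start, at chr4:150853546-150853795, has none of the 6 motifs and a G and C content of 38%, against 64.8% in the window shown. Dusp1 and Errfi1 are the 2 of the 4 feedback genes with both signals and a promoter sequence that hold the full element. Which Errfi1 start these cells use was not measured.

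Etv4 encodes PEA3, an Ets factor whose transcription follows FGF and ERK signalling in many tissues. Its brighter probe set, 161842_r_at, had a signal of 1812 on fibronectin, against 4369 in suspension. The suspension signal exceeded all negative controls, and on fibronectin 2 of 19 were as bright or brighter. The log2 ratio was -1.27, or 2.41-fold lower on fibronectin, which is the largest decrease among the 6 genes. A ratio as low or lower was found for 4.57% of all measured genes and for 0.845% of those in the top tertile of signal. The other probe set, 92979_at, had a signal of 653 on fibronectin, against 261 in suspension, so it was higher there by at least 1.33-fold. On the fibronectin array 8 of 19 negative controls were as bright or brighter than it, and in suspension 15 were. For Etv4 the brighter probe set is the one with relaxed probe rules, the reverse of Dusp6. Probe set 92979_at was near background, so that the lower level of Etv4 on fibronectin rests on 161842_r_at alone. With both probe sets averaged, the log2 ratio was -0.43. Without Etv4, 1 of 5 genes was at least 1.5-fold lower and the median log2 ratio was -0.30.

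**Figure D3:**
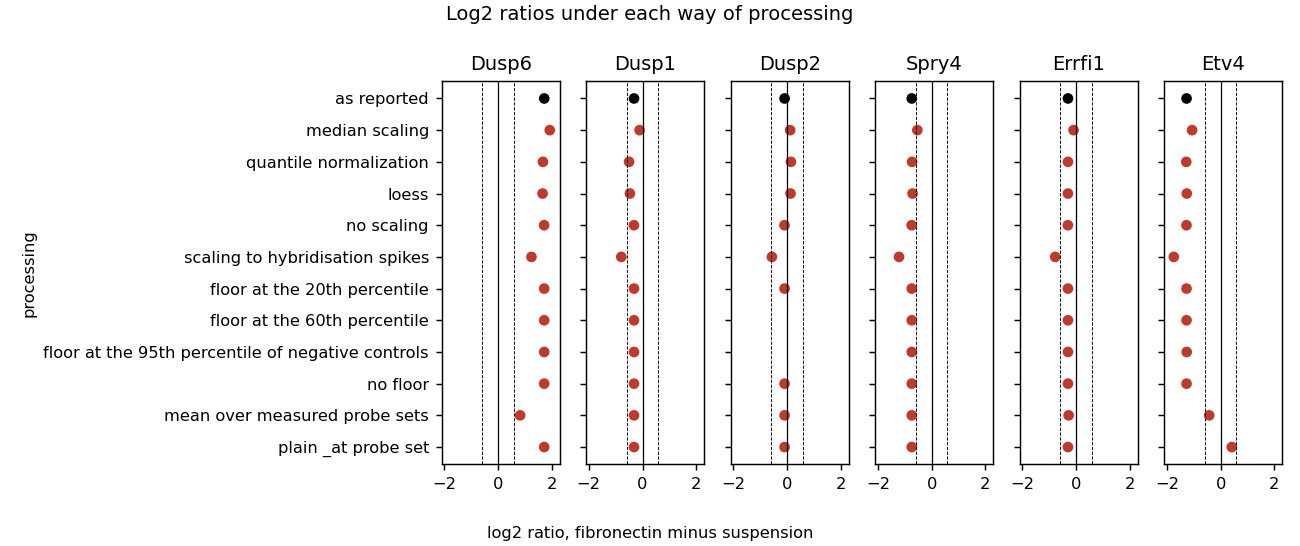
Log2 ratio, fibronectin minus suspension, of each of the 6 genes (panels) under the 12 ways of processing (rows), with the values reported in the text in black and dashed lines at 1.5-fold. Dusp6 lies above 0 in all rows and Spry4, Dusp1 and Errfi1 below 0 in all rows, while Etv4 crosses to 0.41 in the last row. Dusp2 has no point in 2 rows because it was not measured with those floors.

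The direction of Dusp6, Spry4, Dusp1 and Errfi1 was the same in all 12 ways of processing the signals. The probe sets used for these genes lay above every floor on both arrays, so a change of floor could hardly alter their ratios. Spry4 and Dusp1 have 1 probe set each, so for them only a change of scaling could do so. The log2 ratio of Dusp6 lay between 0.82 and 1.93 and passed 2-fold in 11 of the 12. Spry4 lay between -1.21 and -0.53, and was at least 1.5-fold lower in 11. Dusp1 lay between -0.79 and -0.11 and Errfi1 between -0.78 and -0.10, each past 1.5-fold in 1 of the 12, the scaling to hybridisation spikes. That scaling moved the median ratio of all measured genes by -0.43, and median scaling moved it by 0.19. Relative to the median of all genes, Dusp6 had a log2 ratio of 1.81 as reported, 1.82 under median scaling and 1.76 with the spikes. For Dusp1 these relative values were -0.23, -0.21 and -0.28, and for Spry4 -0.65, -0.64 and -0.70. After quantile normalization and loess, Dusp6 lay 1.70 and 1.68 above the median of all genes, Spry4 had -0.70 and -0.69 and Dusp1 had -0.48 and -0.45.

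Other genes around the same feedback loop were taken from lists of the pathway. Among other dual-specificity phosphatases, 6 of 15 had a probe set and 5 were measured. Of these 1 was higher and 0 were lower by at least 1.5-fold, where 15.9% and 22.6% of all measured genes were. The higher gene was Dusp9, an ERK phosphatase related to Dusp6, by at least 1.87-fold. Its signals were 917 on fibronectin and 459 in suspension, both in the range of the negative controls. Dusp16, a JNK phosphatase, and Dusp11, which acts on RNA, had log2 ratios of 0.17 and 0.14, and -0.30 and -0.33 with scaling to the spikes, where the median of all measured genes was -0.51. The only 1 of these 5 genes above the 95th percentile of the negative controls in an array was Dusp12, at 1777 on fibronectin and 1816 in suspension.

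Of 22 Ras and receptor antagonists and adaptors, 12 were measured, with 3 higher and 4 lower by at least 1.5-fold. The shares of all measured genes were 15.9% higher and 22.6% lower. Socs3, a cytokine-induced inhibitor of JAK signalling, had a signal of 3462 on fibronectin, against 8139 in suspension, with a log2 ratio of -1.23 in this probe set and -0.96 in its other one. It stayed between -1.71 and -1.03 in all 12 ways of processing. Gab1, an adaptor that promotes rather than restrains Ras signalling, had a signal of 2850 on fibronectin, against 1118 in suspension (log2 ratio 1.35), and 0.28 in its other probe set. Sh2b3, which encodes the adaptor LNK, had signals of 1770 on fibronectin and 502 in suspension (log2 ratio 1.82), both within the range of the negative controls. The median of this list was 0.18, and -0.18 with scaling to the spikes.

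Among 23 other Ets factors 13 were measured, of which 5 were higher and 3 lower by at least 1.5-fold. Of all measured genes, 15.9% were higher and 22.6% lower by that limit. Erf was the only gene of this list above the 95th percentile of the negative controls on both arrays. It had a signal of 3507 on fibronectin, against 1691 in suspension, and was 2.07-fold higher (log2 ratio 1.05). Ets1, a factor whose activity ERK phosphorylation raises, had a signal of 203 on fibronectin, against 2042 in suspension, and was at least 4.17-fold lower. With the floor at the level of the negative controls its log2 ratio was -0.17, so that the size of this difference rests on where background is set. Elf3, an epithelial Ets factor, was higher by at least 2.60-fold and Gabpa, a broadly expressed one, by 2.36-fold. Both were in the range of the negative controls, at 1273 and 1185 on fibronectin. With the floor at the 60th percentile their log2 ratios were 0.28 and 0.17, so these folds too depend on where background is set. The list median of -0.21 was 0.00 under median scaling, 0.22 with the floor at the 60th percentile and 0.02 with the floor at the negative controls, so its sign was not settled.

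The receptors that these inhibitors act on were measured in part. Of 13 ErbB receptors and ligands 5 were measured, of which 1 was at least 1.5-fold higher and 0 lower, against 15.9% and 22.6% of all measured genes. The higher gene was Egfr, the receptor that Errfi1 inhibits, by at least 3.32-fold in probe set 101842_g_at. This Egfr probe set had a signal of 1628 on fibronectin, against 448 in suspension, both within the range of the negative controls. Its other measured probe sets had log2 ratios of 0.38 and -0.62. Erbb3 was at least 1.36-fold lower, also near background, and the ligand gene Hbegf had signals of 2650 on fibronectin and 2417 in suspension (log2 ratio 0.13, and -0.34 with scaling to the spikes). The median of this list, -0.03, lay between -0.65 with no floor and 0.38 with the floor at the 60th percentile, so its sign was not settled.

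Of 8 FGF, PDGF and VEGF receptors, on whose signals Sproutys act, 5 were measured, with 3 at least 1.5-fold higher and 1 lower. Over all measured genes the shares were 15.9% and 22.6%. Pdgfrb had a signal of 7795 on fibronectin, against 2327 in suspension, a log2 ratio of 1.74. Fgfr1 had a signal of 10282 on fibronectin, against 4698 in suspension, a log2 ratio of 1.13, in a probe set whose suffix f marks probes shared with related sequences. Fgfr3 was 2.32-fold lower, with signals of 552 on fibronectin and 1277 in suspension, both within the range of the negative controls. Its log2 ratio was -1.21, and -0.28 with the floor at the 60th percentile, and it was not measured with the floor at the negative controls. The median log2 ratio of this list was 0.63 and stayed above 0 in all 12 ways of processing, between 0.08 and 0.88.

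**Figure D4:**
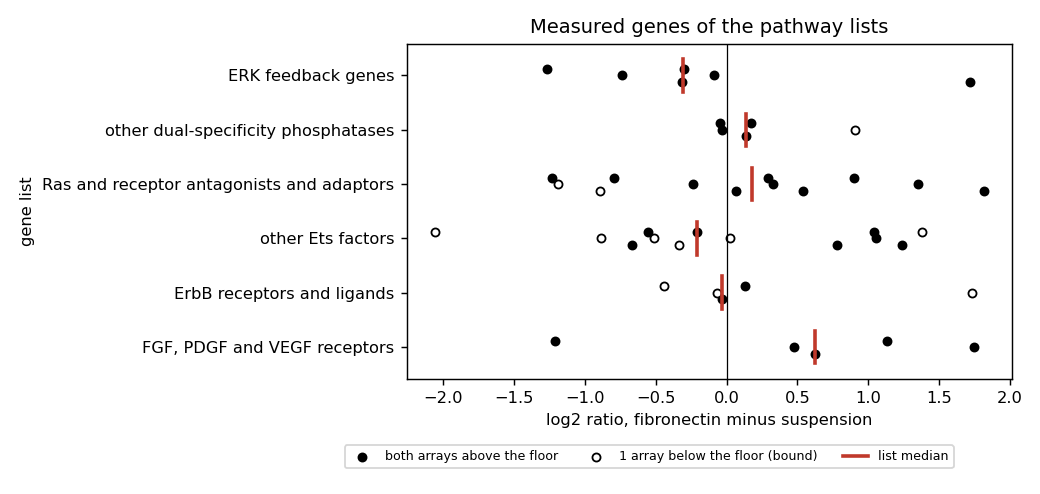
Log2 ratio, fibronectin minus suspension, of every measured gene (points) of the feedback genes and of 5 lists around the pathway (rows, by number of measured genes 6, 5, 12, 13, 5 and 5 from the top). Open points have 1 array below the floor and are bounds, and red bars are list medians. The feedback genes span -1.27 to 1.72, and the row of FGF, PDGF and VEGF receptors has the highest median, 0.63.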

How the data were processed

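For each of 12488 probe sets the authors deposited a linear intensity, the MAS5 signal according to the submitters' processing notes. The sources used here give neither its version, scaling target nor detection calls. Both arrays were scaled to 1 common 2% trimmed mean, taken over 12422 probe sets without the controls (1486 on fibronectin and 1489 in suspension before scaling). The floor was the mean of both arrays' 40th percentiles, set before log2. Names came from the platform annotation, where 10855 probe sets had 1 gene. Where a gene had several probe sets, the brightest by mean log2 signal was used, and every member probe set is reported. A ratio with 1 array under the floor is a bound, written as at least N-fold. Negative controls were the antisense and yeast control probe sets. Groups came from the sample titles. The members and lists were chosen with earlier results of these data known. All members are named, as are up to 3 genes with the largest absolute ratio of each pathway list. Col1a1, Vim, Dusp12 and Erf were added after their values were seen. Alternatives changed the scaling, the floor, the probe set or the fold limit. Scaling and ratios were tested on simulated data with known changes placed on bright probe sets only. That run did not test dim probe sets, the floor or the choice among probe sets. Python 3.11.15, numpy 2.4.6, pandas 2.3.3, scipy 1.17.1 and statsmodels 0.14.6 were used.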

Additional observations from a re-analysis of the deposited data

How the results depend on the processing

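The number of genes at least 1.5-fold higher on fibronectin stayed at 1 in all ways of processing and at the 2-fold and 3-fold limits, while the share of all measured genes past 1.5-fold ran between 5.77% with the hybridisation spikes and 23.3% under median scaling. The number at least 1.5-fold lower was 2 as reported. It was 4 with scaling to the hybridisation spikes, where 45.9% of all measured genes passed the same limit, the highest share of all settings, against 8.48% with the floor at the negative controls, the lowest. It was 1 under median scaling, with the mean over probe sets, with only plain _at probe sets and, chosen after seeing the data, without Etv4. With a 2-fold limit it was 1 and with a 3-fold limit 0. Genes with a ratio below 0 numbered 4 or 5, while the share of all measured genes ran from 43.6% under median scaling to 78.3% with the spikes. The median log2 ratio lay between -0.78 with the spikes and -0.10 under median scaling, where all measured genes had -0.51 and 0.11. Relative to all measured genes it was -0.27 with the spikes and -0.21 under median scaling. With only plain _at probe sets the log2 ratio of Etv4 turned from -1.27 to 0.41, since this setting reads its dim probe set. With the mean over probe sets Dusp6 had 0.82 and Etv4 -0.43. Of all genes at least 2-fold apart, 38.5% were higher on fibronectin as reported, 59.5% under median scaling, 51.0% and 51.3% after quantile normalization and loess, 8.68% with the spikes, 49.5% with the floor at the 60th percentile and 70.9% with it at the negative controls. Dusp2 was not measured with these last 2 floors. Signals of Dusp2 and of the second probe sets of Dusp6 and Etv4 were too near background to give a ratio. No paired analysis was possible because each group has 1 array, and no array could be left out.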
